A study of Rattus norvegicus with 325 samples.

Results

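The tibialis anterior, the muscle at the front of the shin that lifts the foot, was compared between rats of 27 months and rats of 6 months. Each group held 12 libraries, which were taken as all samples whose titles name this muscle and one of these ages, 24 of the 325 libraries of the series. The rats of both groups were male Sprague Dawley animals, an outbred laboratory stock, and carried no transgene, deletion or treatment that the labels name. Gene expression was profiled by total RNA sequencing of the whole muscle. The labels do not say which animal gave which library, so the p-values describe the spread between these libraries. The study counts the samples of a muscle as animals, 12 at each of these ages. Muscles of rats of a given age were collected on a single day, and age and collection day cannot be told apart.

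A skeletal muscle fibre is contacted by its motor nerve at a small patch of membrane, the neuromuscular junction, where acetylcholine receptors are concentrated. The adult receptor is built of alpha, beta, delta and epsilon subunits, and the gamma subunit stands in place of epsilon in fetal muscle and in muscle that has lost its nerve. The tibialis anterior of the rat consists mainly of fast fibres, whose myosin heavy chains, glycolytic enzymes and calcium-handling proteins suit short and strong contractions. Its fibres can switch on fetal receptor subunits, embryonic myosin and the myogenic factor myogenin when nerve activity is lost.

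The libraries held 28.1 M to 66.1 M counts at 6 months and 21.4 M to 41.8 M counts at 27 months. The share of counts in the top 10 genes had a median of 28.1% at 6 months and 21.6% at 27 months. All levels are in CPM (counts-per-million, scaled by the trimmed mean of M values), and all changes are log2 differences, 27 minus 6 months, from limma-voom, given ± SE (n = 12 libraries at each age). The summed level of 7 genes that define skeletal muscle was 76197 to 86467 CPM at 6 months and 45152 to 80322 CPM at 27 months. This sum does not tell one skeletal muscle from another, so the label of the muscle was not tested by it. Replicate 9 of 27 months stood apart from the other 11 libraries of its age. For 1791 of the 3245 genes called different (55.2%) it lay closest of the 12 to the 6-month side, against 40 to 320 genes for each other library. It also held 319 CPM of Alb, the serum albumin gene of the liver, against at most 2.56 CPM in the other 11 (Alb was picked out after its values were seen).

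Of 11754 genes tested, 3245 passed both thresholds (a change over 1.5-fold and, after Benjamini-Hochberg adjustment, p under 0.05), which is 27.6% of the genes tested. Of these, 2026 were higher at 27 months (17.2% of the genes tested) and 1219 were lower (10.4%). Counts of rises and falls within each gene list below are to be read beside these shares. They cover only members that passed a filter on low counts, which a member can pass through the older libraries in which it is high. The change exceeded 2-fold in 1470 and 4-fold in 358 of the called genes. The 2 groups did not overlap in any library for 2339 genes, 19.9% of those tested. Gene counts without replicate 9 of 27 months were 2123 higher and 1335 lower. With libraries scaled to their total count alone, the split was 3623 higher against 442 lower, and the median change over all genes was 0.34 in place of 0.02, so that every decline given here is relative to the bulk of genes. The spread between libraries also differed, since the SD of log2 CPM was larger at 27 months in 79.8% of genes, with a median SD of 0.239 against 0.128.

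All 5 subunits of the muscle acetylcholine receptor were higher at 27 months, with every library of 27 months above every library of 6 months. Chrng, which encodes the fetal gamma subunit, was measured at 0, 0.219 and 0.338 CPM at 6 months (lowest, median and highest library) and 6.04, 29.7 and 61.6 CPM at 27 months. One library of 6 months held no count of Chrng. Its log2 change was 7.16 ± 1.05, with a limma-voom adjusted p of 4.93e-09, and with few counts at 6 months its size depends on the prior count. Chrna1, which encodes the acetylcholine-binding alpha subunit, was at 8.70, 11.9 and 15.1 CPM at 6 months and 120.3, 538 and 896 CPM at 27 months, a log2 change of 5.35 ± 0.35. Chrnd, the delta subunit, was at 5.01, 5.81 and 6.60 CPM at 6 months and 62.0, 187 and 283 CPM at 27 months, a change of 4.83 ± 0.29 with a limma-voom adjusted p of 6.04e-25. The rise was smaller for the other two. Chrne, the adult epsilon subunit, was at 6.81, 7.80 and 9.42 CPM at 6 months and 11.2, 19.5 and 34.6 CPM at 27 months and changed by 1.32 ± 0.15. Chrnb1, the beta subunit, was at 45.2, 50.8 and 57.0 CPM at 6 months and 70.4, 106 and 142 CPM at 27 months and changed by 1.06 ± 0.08. Replicate 9 was the lowest of the 12 libraries of 27 months for each subunit, and without it the changes were 7.33 for Chrng, 5.53 for Chrna1 and 4.96 for Chrnd.

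**Figure D1:**
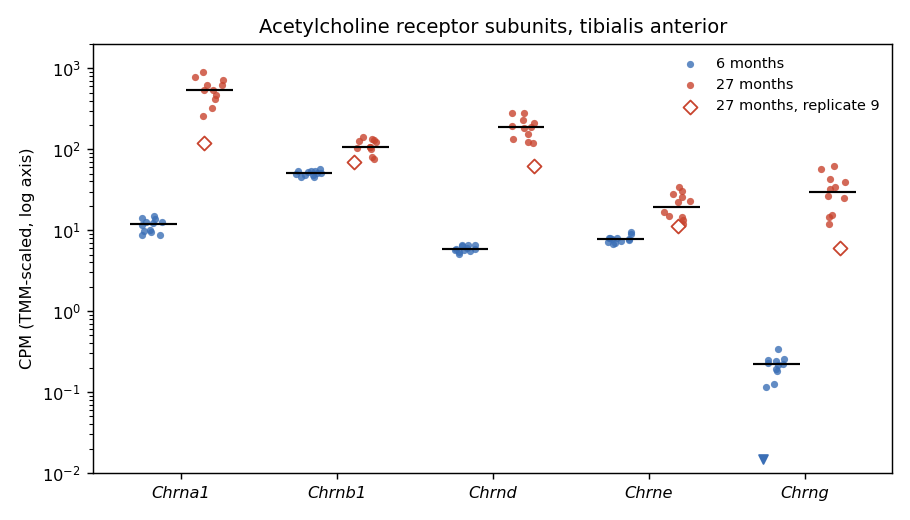
Levels of the 5 acetylcholine receptor subunits in the 24 tibialis anterior libraries, in CPM on a log axis. Each point is a library, bars are medians of 12, the diamond is replicate 9 of 27 months and the triangle at the lower edge marks the library with no Chrng count; the 2 ages do not overlap for any subunit, and the medians of Chrng are 0.219 and 29.7 CPM.

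Myogenin (Myog), whose own level is given further on, binds E-boxes with the letters CANNTG, so the 150 bases before each annotated start are shown (RefSeq, build GRCr8, 5′ to 3′ on the strand of the gene, E-boxes in capitals). The motif reads alike on both strands, and its CAGCTG form is a subset of it.
Chrna1 chr3:78877354-78877503, minus strand: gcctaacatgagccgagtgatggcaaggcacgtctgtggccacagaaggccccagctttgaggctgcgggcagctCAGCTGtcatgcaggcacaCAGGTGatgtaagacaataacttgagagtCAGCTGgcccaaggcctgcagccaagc
Chrnb1 chr10:55015108-55015257, minus strand: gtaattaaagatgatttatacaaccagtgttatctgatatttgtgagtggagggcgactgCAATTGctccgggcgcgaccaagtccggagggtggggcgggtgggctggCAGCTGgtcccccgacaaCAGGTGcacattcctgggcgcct
Chrnd chr9:95310166-95310315, plus strand: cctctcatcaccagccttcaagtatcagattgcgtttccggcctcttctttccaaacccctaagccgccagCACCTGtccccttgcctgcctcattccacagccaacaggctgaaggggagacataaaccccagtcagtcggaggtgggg
Chrne chr10:55834155-55834304, minus strand: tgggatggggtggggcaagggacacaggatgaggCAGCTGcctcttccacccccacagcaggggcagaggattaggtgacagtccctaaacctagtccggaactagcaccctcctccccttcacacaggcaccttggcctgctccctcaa
Chrng chr9:95325834-95325983, plus strand: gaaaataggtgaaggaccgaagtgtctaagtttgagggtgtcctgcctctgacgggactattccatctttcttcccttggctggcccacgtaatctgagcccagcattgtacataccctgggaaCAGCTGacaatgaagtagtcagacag
The form CAGCTG occurred 2 times in the window of Chrna1, at 75 and 27 bases before the start, and once in those of Chrnb1, Chrne and Chrng, at 41, 116 and 26 bases. The Chrnd window held a single E-box, with other middle letters. Of 33469 rat promoters of the same length, 7.63% held CAGCTG and 46.6% held CANNTG. These matches describe the letters only, and binding was not measured.

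Among 16 other genes of the synapse tested, 5 rose and 3 fell, with a median change of -0.04 beside 0.02 over all genes. The sign of this median turned positive under total-count scaling (0.28). Musk, the receptor kinase that clusters acetylcholine receptors, rose from a median of 2.85 to 40.6 CPM, a change of 3.82 ± 0.30. Erbb2 and Erbb3, the receptors of the nerve-derived factor neuregulin, changed by 3.52 and 1.18. Erbb2 was at 1.83 to 3.15 CPM at 6 months and 9.02 to 63.6 CPM at 27 months, and Erbb3, which is also a Schwann cell marker, was at 1.22 to 2.20 CPM at 6 months and 2.95 to 5.06 CPM at 27 months. In contrast, Ache, which encodes the acetylcholinesterase that clears the transmitter, fell from a median of 58.8 to 30.8 CPM (log2 change -1.09 ± 0.15). The syntrophin Sntb1 and the transcription factor Etv4 changed by -1.45 and -1.20. For all of these 6 genes the libraries of the 2 ages did not overlap.

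Of 12 genes known to respond to denervation, 10 rose and 1 fell, beside 17.2% and 10.4% of all genes, and their median change was 3.15. Sln, which encodes sarcolipin, an inhibitor of the calcium pump of the sarcoplasmic reticulum, was at 0.0326, 0.246 and 0.843 CPM at 6 months and 7.19, 27.8 and 46.7 CPM at 27 months. Its change was 6.58 ± 0.81. Runx1, a transcription factor, was at 6.48, 7.77 and 11.8 CPM at 6 months and 137, 295 and 517 CPM at 27 months, a change of 5.10 ± 0.28. Hdac9, a repressor of activity-dependent genes, was the only member called lower, at 19.4 to 23.4 CPM at 6 months and 10.8 to 22.2 CPM at 27 months with a change of -0.61; it missed the fold threshold in 4 of the 24 fits that left out a library. The lists were drawn up with earlier results of these data known and are no independent evidence of a direction.

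The other leading rises were spread over receptors, lipid enzymes and metal-binding proteins. Adra1b, the alpha-1B adrenergic receptor, was at 0, 0.101 and 0.245 CPM at 6 months and 4.06, 14.6 and 24.0 CPM at 27 months, and its change was 7.29 ± 0.92. Faah, which degrades fatty acid amides, and Scd1, the stearoyl-CoA desaturase that makes monounsaturated fatty acids, changed by 5.80 ± 0.60 and 5.61 ± 0.40. Scd1 was at 5.39 to 13.3 CPM at 6 months and 128 to 943 CPM at 27 months. Emb, which encodes the adhesion protein embigin, was at 0.419 to 1.01 CPM at 6 months and 8.41 to 54.2 CPM at 27 months. Tmem158 was at 0.236 to 0.952 CPM at 6 months and 8.59 to 52.7 CPM at 27 months. The metallothionein Mt1a, a metal-binding protein, rose from a median of 1.34 to 80.6 CPM with a change of 5.58 ± 0.57, and its relative Mt2A changed by 3.98. Klk1c7, a tissue kallikrein, changed by 5.71. Metallothioneins and kallikreins have close copies, and the assignment of reads among them is uncertain. In each of these genes all 12 libraries of 27 months lay above the 6-month range.

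The myosin heavy chains moved in different directions. Myh4, which encodes the heavy chain of the fastest fibres (type IIB), was at 66585, 76449.7 and 85760.3 CPM at 6 months (lowest, median and highest library) and 10512, 25197 and 61989 CPM at 27 months. It was 2.82-fold lower (SE of the log2 change 0.18, limma-voom adjusted p = 8.19e-12), and no library of 27 months reached the 6-month range. Myh1, the type IIX chain, was at 29864, 39188 and 42144 CPM at 6 months and 23509.9, 36834 and 45169 CPM at 27 months, a change of -0.07 ± 0.11 that was not called. Myh2, the type IIA chain, likewise overlapped, at 4565, 6265 and 7333 CPM at 6 months and 2741, 5974 and 9531 CPM at 27 months with a change of -0.11 ± 0.18. Under total-count scaling the small changes of Myh1 and Myh2 turned positive and stayed uncalled. Myh7, the slow chain, was at 1259, 1801 and 2962 CPM at 6 months and 162, 758 and 4037 CPM at 27 months and changed by -1.07 ± 0.30. The highest library of 27 months for Myh7 lay above the whole 6-month range and 7 of the 12 lay below it.

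Of 9 genes of the developing or cardiac sarcomere, 7 rose and 1 fell, with a median change of 2.31. Myh3, the embryonic myosin heavy chain, was at 25.6, 38.7 and 65.4 CPM at 6 months and 109, 569 and 1889 CPM at 27 months, a change of 3.79 ± 0.37 with no overlap. Myh8, the neonatal chain, rose less, with 25.8, 34.4 and 49.6 CPM at 6 months and 37.2, 62.2 and 141 CPM at 27 months and a change of 0.93 ± 0.16, and 9 of the 12 libraries exceeded the 6-month range. Tnnt2 and Actc1, the cardiac troponin T and cardiac actin genes of fetal muscle, changed by 3.93 ± 0.50 and 3.17 ± 0.29. Actc1 was at 9.14 to 23.4 CPM at 6 months and 55.0 to 286 CPM at 27 months, and Tnnt2 at 0.358 to 2.35 CPM at 6 months and 3.16 to 38.2 CPM at 27 months. Myl4, the embryonic light chain, changed by 2.31 ± 0.37. Ankrd1, a titin-binding stress protein of muscle, changed by 4.94 ± 0.31, at 9.75 to 40.2 CPM at 6 months and 297 to 1390.3 CPM at 27 months. The intermediate filament gene Nes changed by only 0.63. Myh6, the alpha cardiac chain, fell from a median of 6.98 to 2.32 CPM with 5 of 12 libraries below the 6-month range (change -1.47 ± 0.53). Myh7b was not called, at 5.97 to 13.6 CPM at 6 months and 5.58 to 17.1 CPM at 27 months.

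**Figure D2:**
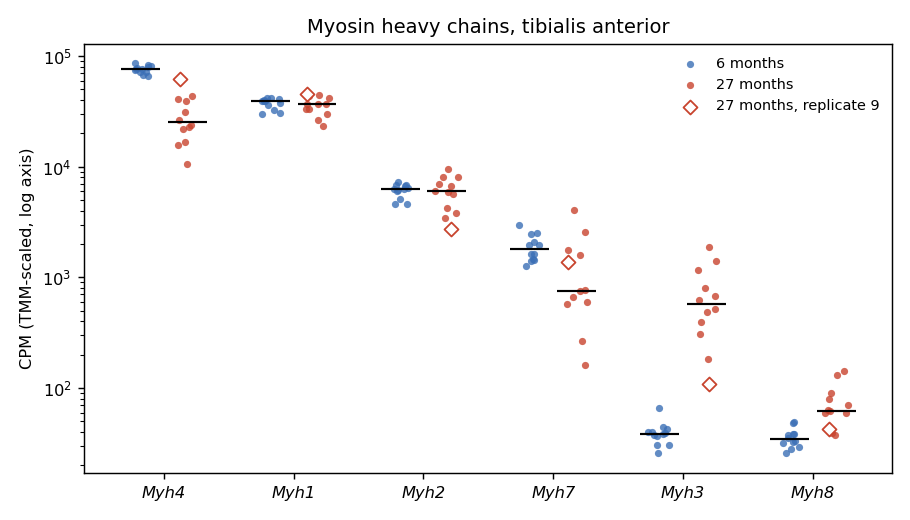
Levels of 4 adult (Myh4, Myh1, Myh2 and Myh7) and 2 developmental (Myh3 and Myh8) myosin heavy chain genes in the 24 libraries, in CPM on a log axis, with medians of 12 as bars and replicate 9 of 27 months as a diamond. Myh4 and Myh3 separate the ages without overlap in opposite directions, while Myh1 and Myh2 overlap.

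Among 12 myogenic and satellite cell factors, 5 rose and 2 fell (median change 0.30), beside 17.2% and 10.4% of all genes. Myog, which drives the terminal step of muscle differentiation, was at 7.27, 8.60 and 13.4 CPM at 6 months and 75.2, 123 and 181 CPM at 27 months, a change of 3.76 ± 0.23 with a limma-voom adjusted p of 9.16e-25. Tmem8c is the name in the files for the fusion protein myomaker. It was at 0.0825, 0.231 and 0.507 CPM at 6 months and 2.26, 7.57 and 17.4 CPM at 27 months, a change of 5.00 ± 0.61. Myf5, an early myogenic factor, was at 1.46 to 3.26 CPM at 6 months and 4.03 to 26.5 CPM at 27 months. The satellite cell cadherin Cdh15 changed by -0.60, close to the 1.5-fold threshold, which it missed in 7 of the 24 fits that left out a library.

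Of 11 fast fibre genes tested 6 fell and 0 rose, and the change was negative in 11 of 11. The median was -0.68, and under total-count scaling it was -0.37 with 4 called lower. Mylk2, the myosin light chain kinase of skeletal muscle, was at 1122, 1205 and 1377 CPM at 6 months and 99.8, 274 and 755 CPM at 27 months, a change of -2.19 ± 0.21. Actn3, the alpha-actinin of fast fibres, was at 11101, 12419.7 and 13868 CPM at 6 months and 1645, 4180.1 and 10923 CPM at 27 months. Its change was -1.50 ± 0.17. Mybpc2, the fast myosin-binding protein C, changed by -1.14 ± 0.16. Among 13 slow fibre genes 2 rose and 4 fell, with a median change of -0.42. Under total-count scaling 3 rose and 2 fell, with a median of -0.10. The stress-responsive Z-disc protein gene Csrp3 rose from a median of 34.3 to 204 CPM, and Casq2, the cardiac calsequestrin, changed by 1.22. The slow tropomyosin Tpm3 and slow light chain Myl3 changed by -1.10 and -0.69, and both overlapped between the ages.

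Of 25 genes of glycolysis and glycogen metabolism, 21 were called lower and 0 higher, a share of lower calls that compares with 10.4% over all genes. Their median change was -0.87. Under total-count scaling 12 were called lower, with a median of -0.56. The largest falls were those of Pfkfb3 and Pfkfb1, which set the level of the glycolytic activator fructose 2,6-bisphosphate, and of Gpd1, the cytosolic glycerol phosphate dehydrogenase. Pfkfb3 was at 55.6, 113 and 245 CPM at 6 months and 9.44, 23.4 and 70.4 CPM at 27 months, a change of -2.05 ± 0.30. Pfkfb1 was at 97.4 to 108 CPM at 6 months and 7.11 to 82.1 CPM at 27 months, a change of -1.71 ± 0.20. Gpd1 was at 796, 858 and 910.4 CPM at 6 months and 68.1, 298 and 699.6 CPM at 27 months, a change of -1.64 ± 0.21. Pfkfb1 and Gpd1 separated the ages without overlap, whereas for Pfkfb3 10 of 12 libraries lay below the 6-month range.

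Genes of excitation-contraction coupling, which links the nerve impulse to calcium release, showed 9 falls and 1 rise among 17 tested (median change -0.59; 4 falls under total-count scaling). The potassium channels Kcna7 and Kcnj11 were at 124 to 156 CPM at 6 months and 18.8 to 121 CPM at 27 months and at 292 to 342 CPM at 6 months and 101 to 217 CPM at 27 months, respectively. Trdn, which encodes the triadin of the calcium release complex, changed by -1.16 ± 0.14. Cacnb1, the beta subunit of the voltage sensor, was the one that rose, at 119 to 154 CPM at 6 months and 233 to 376 CPM at 27 months. In the dystrophin complex and membrane repair list, 3 of 16 rose and 2 fell, shares near those over all genes (17.2% and 10.4%). The repair proteins Dysf and Anxa2 changed by 0.97 and 0.98, dystrophin (Dmd) by 0.76, and the sarcoglycan Sgcb and the caveolin Cav3 by -1.10 and -0.93.

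Most mitochondrial genes had small negative changes. The change was negative in 32 of 33 complex I genes and 32 of 33 genes of complexes II to V, but only 3 and 7 of them passed the fold threshold. For complex I this share, with all libraries kept, was no higher than the 10.4% of all genes called lower. The medians were -0.47 and -0.45. Of 16 genes of the citric acid cycle 6 fell (median -0.54), and of 14 regulators of mitochondrial biogenesis 4 fell (median -0.33), beside 10.4% of all genes. Under total-count scaling 0, 1, 0 and 1 falls were called in these 4 lists. Without replicate 9 of 27 months 6, 9, 8 and 4 falls were called in them, beside 1335 of 11784 genes tested. Cycs, the cytochrome c gene, was at 1325, 1409 and 1509 CPM at 6 months and 361, 609.7 and 1102 CPM at 27 months, a change of -1.20 ± 0.11. Perm1, a muscle regulator of mitochondrial genes, changed by -1.24 ± 0.17. Ppargc1a, which encodes the coactivator PGC-1 alpha, changed by -0.59 ± 0.07, just past the 1.5-fold threshold, and it missed that threshold with the replicate number as a block (-0.58) and in 10 of the 24 fits that left out a library. Genes of fatty acid uptake and oxidation had a median change close to 0, with 2 called higher, 0 called lower and 22 tested. Those called were Decr1, an enzyme of unsaturated fatty acid oxidation, and Pdk4, the kinase that shuts pyruvate dehydrogenase, with changes of 0.92 and 0.63. Pdk4 overlapped, at 211 to 714 CPM at 6 months and 286 to 933 CPM at 27 months, and missed a threshold in 6 of the 24 fits that left out a library.

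**Figure D3:**
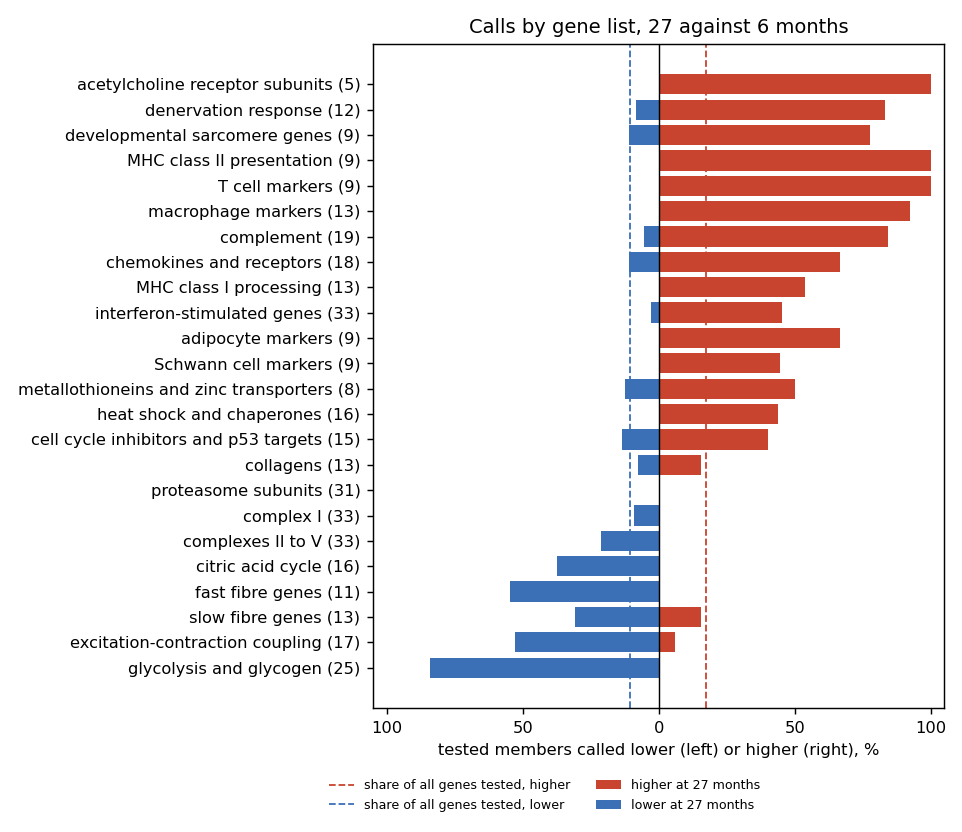
Share of tested members called higher (red, right) or lower (blue, left) at 27 months for 24 gene lists, with the number of members tested in brackets. Dashed lines mark the shares over all 11754 genes tested, 17.2% higher and 10.4% lower. The 24 lists were chosen from 46. Of those shown, the glycolysis list lies farthest to the left and the receptor, MHC class II and T cell lists reach the right edge. Only members that passed the low-count filter are counted, 9 of 11 for MHC class II and 9 of 14 for T cells. A member can pass it through the older libraries in which it is high, which partly fixes these shares.

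Neither of the best known atrophy ligases passed both thresholds. Trim63, which encodes the muscle ubiquitin ligase MuRF1, was at 134, 152 and 178 CPM at 6 months and 140.1, 205 and 323 CPM at 27 months. Its change of 0.48 ± 0.10 lay under the 1.5-fold threshold (limma-voom adjusted p = 1.03e-05) and passed it only under total-count scaling (0.81). Fbxo32, the ligase atrogin-1, was at 196, 253 and 285 CPM at 6 months and 117, 235 and 282 CPM at 27 months, a change of -0.24 ± 0.11 that was not called and turned positive under total-count scaling. Of 13 genes of this list 2 rose and 3 fell, beside 17.2% and 10.4% of all genes. Fbxo30, a ubiquitin ligase of denervated muscle, was at 43.3 to 62.0 CPM at 6 months and 67.2 to 241 CPM at 27 months and Klhl40 at 64.8 to 81.0 CPM at 6 months and 134 to 223 CPM at 27 months. Asb2, Foxo4 and Mul1 changed by -1.49, -0.85 and -0.63. None of 31 proteasome subunits was called, and their median change was 0.09. Psmd1 and Psmd2, named for their high counts, changed by 0.01 and 0.11. Of 26 genes of autophagy and the lysosome 4 rose and 0 fell, a share of rises no higher than the 17.2% over all genes. The cathepsins Ctsl, Ctss and Ctsb were among those called, with changes of 1.35, 1.33 and 0.94.

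Among 17 genes of myostatin and activin signalling, 7 rose and 4 fell, beside 17.2% and 10.4% of all genes. Mstn, which encodes the growth inhibitor myostatin, was at 11.4, 14.5 and 20.0 CPM at 6 months and 2.07, 3.15 and 9.99 CPM at 27 months, a change of -2.09 ± 0.19 with no overlap (limma-voom adjusted p = 1.22e-16). Fst, the gene of its antagonist follistatin, rose from a median of 1.74 to 18.9 CPM, 9.86-fold in the fit. Tgfb2 and Tgfb1 changed by 1.69 and 1.61, and the receptor Acvr1b by -0.90. Inhba, the activin A subunit, was at 0.268 to 0.712 CPM at 6 months and 0.0618 to 0.517 CPM at 27 months. Among 13 genes of the insulin-like growth factors 4 rose and 1 fell, beside the same shares of all genes. Igf2, a fetal growth factor, was at 143, 170.3 and 208 CPM at 6 months and 495, 1113 and 2967 CPM at 27 months, a change of 2.86 ± 0.21. H19, the noncoding RNA transcribed next to Igf2 in the same imprinted region and picked out after its values were seen, was at 1233, 1850.5 and 3257 CPM at 6 months and 5436, 9608 and 19054 CPM at 27 months, a change of 2.49 ± 0.18. Igfbp5 and Igfbp2 changed by 1.64 and 4.55, and Igfbp2 was at 0 to 0.326 CPM at 6 months and 0.395 to 6.46 CPM at 27 months. Igf1 itself was not called, at 11.3 to 18.8 CPM at 6 months and 10.6 to 18.1 CPM at 27 months. Irs1, the docking protein of the insulin receptor, fell from a median of 407 to 131 CPM without overlap (change -1.67 ± 0.12).

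Cdkn1a, which encodes the cell cycle inhibitor p21, was at 5.80, 16.6 and 26.8 CPM at 6 months and 209, 632 and 1054 CPM at 27 months. Its change was 5.33 ± 0.35 with a limma-voom adjusted p of 3.42e-23. In the list of cell cycle inhibitors and p53 targets 6 of 15 rose and 2 fell. Cdkn2b, which encodes p15, and Phlda3 changed by 2.87 ± 0.24 and 1.98 ± 0.14, and Rrm2b and Sesn1, both targets of p53, by -0.87 and -0.66. Of 14 genes of the integrated stress response 5 rose and 2 fell, beside 17.2% and 10.4% of all genes. Atf4, its central transcription factor, fell from a median of 396 to 165 CPM without overlap (change -1.22 ± 0.11), and Chac1, which degrades glutathione, was at 13.0 to 68.8 CPM at 6 months and 1.99 to 15.4 CPM at 27 months. The stress-induced genes Asns, Slc7a11 and Atf3 rose by 1.18, 1.44 and 1.27, and all 3 overlapped between the ages in some libraries. Of 16 heat shock genes 7 rose and 0 fell, with Hspb7 and Hspb8, small chaperones of muscle, at 294 to 486 CPM at 6 months and 738 to 2093 CPM at 27 months and at 422 to 469 CPM at 6 months and 900.5 to 1834 CPM at 27 months. Hspa1b, which shares sequence with near-identical copies, changed by 1.06.

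In polyamine metabolism 2 of 11 genes rose, a share near the 17.2% over all genes, and 3 fell, beside 10.4% of all genes. Sat1, which acetylates spermidine and spermine for breakdown or export, was at 6.61, 7.67 and 9.90 CPM at 6 months and 31.8, 46.5 and 76.2 CPM at 27 months, a change of 2.58 ± 0.16. Amd1 and Srm, which act in the synthesis of spermidine, changed by -1.03 and -0.59, the polyamine oxidase Smox by -1.08 and the spermine synthase Sms by 0.60. Srm and Sms lay at the 1.5-fold threshold and missed it in 8 and 7 of the 24 fits that left out a library, and Srm also with the replicate block (-0.58). In the list of metallothioneins and zinc transporters 4 of 8 rose. The zinc exporter Slc30a2 changed by 2.86 ± 0.22 and the importer Slc39a10 by -0.67.

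Transcripts of immune cells and antigen presentation were higher at 27 months. In bulk tissue, a change in the number of cells of a type and a change in the RNA per cell cannot be told apart. Of 13 macrophage markers 12 rose and 0 fell, and their summed level was 65.1 to 108 CPM at 6 months and 126 to 266 CPM at 27 months. Tyrobp, Cd68 and Cd163 changed by 1.48 ± 0.18, 1.44 ± 0.17 and 1.42 ± 0.16, each without overlap. All 9 T cell markers that passed the low-count filter rose, of 14 listed, from a summed level of 5.73 to 8.62 CPM at 6 months to 17.0 to 52.2 CPM at 27 months, a sum over 14 in the files of which none was at 0 in all 24 libraries. Cd28, the costimulatory receptor, was at 0.847, 1.70 and 3.18 CPM at 6 months and 8.09, 22.0 and 36.5 CPM at 27 months. The median of the sum was 7.16 CPM at 6 months and 36.3 CPM at 27 months, so Cd28 alone held a large part of its rise. Cd5 and Zap70 had few counts, at 0 to 0.261 CPM at 6 months and 0.108 to 1.26 CPM at 27 months and at 0 to 0.152 CPM at 6 months and 0.0351 to 0.539 CPM at 27 months. A single B cell or plasma cell marker of 8 in the files passed the filter on low counts, Sdc1, and it was not called (change -0.11 ± 0.11). Of 8 neutrophil and mast cell markers 5 passed that filter and were higher, with S100a9 at 0 to 0.223 CPM at 6 months and 0.108 to 1.87 CPM at 27 months, Csf3r at 0.226 to 0.688 CPM at 6 months and 0.683 to 1.85 CPM at 27 months and Fcer1a at 0.0262 to 0.591 CPM at 6 months and 0.148 to 0.980 CPM at 27 months. A marker can pass the filter through the older libraries in which it is high, so that the counts of rises among markers with few counts are partly fixed by it. The part of these cells in the other changes of the muscle was not tested.

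Of 11 genes of MHC class II presentation 9 passed the filter and rose (median change 1.33) and 7 of 13 genes of MHC class I processing rose (median 1.12), beside 17.2% of all genes. B2m, the light chain of MHC class I, was at 146, 177 and 221 CPM at 6 months and 511, 954 and 1540.3 CPM at 27 months, a change of 2.39 ± 0.14 with a limma-voom adjusted p of 1.32e-25. The class I chains RT1-A1 and RT1-A2 changed by 2.15 and 2.07, and the class II chains RT1-Ba and RT1-Bb by 2.61 ± 0.58 and 3.11 ± 0.75. Reads of these families can be shared between alleles and copies, and their levels are uncertain. Ciita, the master regulator of class II genes, was at 0.684 to 2.04 CPM at 6 months and 2.23 to 4.91 CPM at 27 months. Among 19 complement genes 16 rose and 1 fell. C4a rose from a median of 9.09 to 56.8 CPM, a change of 2.45 ± 0.21, though close copies exist. C3 was at 0.379, 0.858 and 1.26 CPM at 6 months and 2.09, 5.30 and 31.9 CPM at 27 months, and the highest value was that of replicate 9, without which its change was 2.75 in place of 2.93. Cfi changed by 2.03, with its highest value again in replicate 9, and the complement inhibitor Cd55 by -0.96.

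Of 33 interferon-stimulated genes 15 rose and 1 fell, with a median change of 0.54. The members with the largest rises had low counts, with Oas2 at 0.0625 to 1.60 CPM at 6 months and 0.764 to 2.35 CPM at 27 months, Oas3 at 0 to 0.306 CPM at 6 months and 0.0719 to 0.517 CPM at 27 months and the chemokine Cxcl9 at 0.423 to 1.30 CPM at 6 months and 1.23 to 3.16 CPM at 27 months. Ifit2 changed by -0.63. Of 21 chemokines and receptors in the files 18 passed the filter on low counts, and 12 of these rose and 2 fell. The count of rises among those with few counts is partly fixed by that filter. Cxcl13, which attracts B cells, was at 0 to 0.253 CPM at 6 months and 0.216 to 2.49 CPM at 27 months. Ccl7 and Cxcr3 were at 0.0323 to 0.531 CPM at 6 months and 0.180 to 1.23 CPM at 27 months and at 0.0550 to 0.284 CPM at 6 months and 0.0858 to 0.815 CPM at 27 months. Cxcl12 and its scavenger receptor Ackr3 fell without overlap, Cxcl12 from a median of 214 to 137 CPM and Ackr3 from a median of 51.4 to 27.8 CPM. The summed level of the whole list was lower at 27 months in most libraries, 321 to 389 CPM at 6 months and 233 to 338 CPM at 27 months.

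Transcripts of the connective tissue were mostly uncalled among the collagens. Of 13 collagen genes tested 2 rose and 1 fell, below the shares over all genes (17.2% and 10.4%), with a median change of -0.07 that turned positive under total-count scaling (0.25). Col8a1 and Col13a1 changed by 1.24 and 0.85, and Col5a3 by -0.94. Among 29 other matrix genes 10 rose and 1 fell. Bgn, the proteoglycan biglycan, was at 34.1 to 55.0 CPM at 6 months and 72.8 to 218 CPM at 27 months, Loxl1, a collagen and elastin crosslinking enzyme, at 2.90 to 5.11 CPM at 6 months and 7.33 to 20.2 CPM at 27 months, and Timp1, an inhibitor of matrix proteases, at 1.05 to 2.67 CPM at 6 months and 1.83 to 7.36 CPM at 27 months. The protease Adamts1 changed by -0.65. Of 9 fibroblast markers 2 rose, beside 17.2% of all genes. They were Pi16 and Mfap5, with changes of 1.32 and 0.68.

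Of 9 adipocyte markers 6 rose and 0 fell (median 1.60). Their summed level was 26.4 to 47.2 CPM at 6 months and 54.5 to 81.9 CPM at 27 months. The fat cell hormones Adipoq and Lep were at 2.67, 4.18 and 12.8 CPM at 6 months and 16.2, 19.7 and 25.4 CPM at 27 months and at 0.141 to 1.21 CPM at 6 months and 1.07 to 2.91 CPM at 27 months. Cidea, a lipid droplet protein, changed by 3.62 ± 0.36. Of 9 Schwann cell markers 4 rose, among them S100b and Sox10 with changes of 1.08 ± 0.14 and 0.75 ± 0.12. Of 11 endothelial markers 2 fell, the VEGF receptors Kdr and Flt1, with changes of -0.77 and -0.63, and 0 were called under total-count scaling. In the list of smooth muscle and pericyte markers Cnn1 and Acta2 changed by 1.09 and 0.64, and the pericyte genes Kcnj8 and Rgs5 by -0.78 and -0.71. Among red cell and liver transcripts 1 of 8 was called, Slc4a1, the anion exchanger of red cells, at 0.261 to 1.13 CPM at 6 months and 0.632 to 4.25 CPM at 27 months. Alb, which was high in replicate 9, also belongs to this list, and the largest change in the list (4.50) was not called.

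Clock genes differed between the groups. Of 15 tested, 5 were higher and 6 lower at 27 months. Arntl and Npas2, the activators of the clock, were at 42.6, 49.3 and 62.6 CPM at 6 months and 8.17, 10.8 and 14.7 CPM at 27 months and at 13.4 to 25.9 CPM at 6 months and 3.12 to 7.12 CPM at 27 months, and Nfil3 was at 27.7 to 57.9 CPM at 6 months and 3.89 to 13.8 CPM at 27 months. Dbp, Ciart and Per2, which the activators switch on, were at 7.78 to 48.4 CPM at 6 months and 67.1 to 142 CPM at 27 months, at 0.535 to 5.30 CPM at 6 months and 3.12 to 8.91 CPM at 27 months and at 24.0 to 47.1 CPM at 6 months and 59.3 to 109.7 CPM at 27 months. Arntl, Npas2, Nfil3, Dbp and Per2 separated the groups without overlap. Muscles were collected between the morning and the early afternoon of a day. The hour of each library within that window was not used here, and its part in these values was not tested. Among 10 limb position factors 1 rose and 2 fell, beside 17.2% and 10.4% of all genes. The homeobox genes Hoxc10 and Hoxa11 changed by -0.65 and -0.84 and Hoxa9 by 0.63, each without overlap. Pitx1 and Tbx4, which specify the hind limb, were at 0 to 0.573 CPM at 6 months and 0.0424 to 0.575 CPM at 27 months and at 0.0382 to 0.939 CPM at 6 months and 0.0795 to 0.582 CPM at 27 months and were not called.

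Among the leading falls, Tfrc, which encodes the transferrin receptor for iron uptake, was at 451, 628 and 794 CPM at 6 months and 38.9, 71.8 and 160.5 CPM at 27 months. Its change was -3.01 ± 0.18, with a limma-voom adjusted p of 1.15e-25 and no overlap. Espl1, the separase that parts sister chromatids, and Unc5a, a netrin receptor, changed by -2.50 ± 0.23 and -3.15 ± 0.46, also without overlap. So did the anion transporter Slc26a9 and the calcium channel subunit Cacng7, with changes of -2.91 and -2.72. For 3 further genes replicate 9 alone overlapped with the 6-month range. Adgrb2, an adhesion receptor, was at 7.07, 14.96 and 27.2 CPM at 6 months and 0.297, 0.889 and 14.3 CPM at 27 months, and replicate 9 gave the 14.3 CPM while the next highest library was at 2.46 CPM. Its change was -3.77 ± 1.18, and -4.04 without that library. Ubxn10 and the adenylyl cyclase Adcy1 reached 11.04 and 20.9 CPM in replicate 9 against at most 2.63 and 9.86 CPM in the other 11, and their changes were -3.28 and -2.80. Cish, an inhibitor of cytokine signalling, varied widely at both ages, at 5.70, 48.5 and 108 CPM at 6 months and 2.09, 8.03 and 31.8 CPM at 27 months, and overlapped between the ages.

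The ages between 6 and 27 months place these differences in time (12 libraries an age, 13 at 21 months). Medians are given in order of age, for 6, 9 and 12 months and then for 18, 21, 24 and 27 months. Those of Chrnd were 5.81, 5.93, 6.36, 19.4, 28.1, 94.7 and 187 CPM. The ranges of the first 3 ages overlapped, and the libraries of 18 months (12.2 to 39.5 CPM) all exceeded those of 12 months (5.76 to 8.97 CPM). From 18 months on neighbouring ages overlapped. Cdkn1a had medians of 16.6, 12.7, 13.1, 47.8, 74.7, 272 and 632 CPM over the same ages. Tfrc had medians of 628, 501, 427, 212, 233, 200.5 and 71.8 CPM. Myh4 had medians of 76449.7, 70736, 69391, 68642, 68712, 55280.2 and 25197 CPM, and the libraries of 24 months ranged from 9094 to 73236 CPM. Myh3 had medians of 38.7, 37.9, 31.4, 46.5, 48.2, 117 and 569 CPM. These medians are given as a description, without a test between the intermediate ages.

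The libraries of 27 months differed widely among themselves. Chrnd ran from 62.0 to 283 CPM and Myh3 from 109 to 1889 CPM. The relation of Chrnd to 6 genes was computed over these 12 libraries, on log2 CPM, with two-sided permutation tests of 100000 resamples and Benjamini-Hochberg adjustment over the 6. For Cdkn1a the Pearson coefficient was r = 0.90 (permutation p = 2.00e-04, adjusted 0.0012) and rho = 0.85 (permutation p = 8.60e-04, adjusted 0.00486). For Myh3 it was r = 0.85 (permutation p = 7.60e-04, adjusted 0.00228) and rho = 0.83 (permutation p = 0.00162, adjusted 0.00486). For Myh4 the sign was negative, r = -0.72 (permutation p = 0.0063, adjusted 0.00756) and rho = -0.64 (permutation p = 0.0283, adjusted 0.034). Ndufs1, a core subunit of complex I, gave r = -0.77 (permutation p = 0.00252, adjusted 0.00504) and rho = -0.78 (permutation p = 0.00368, adjusted 0.00736), and Cox6a2, the muscle subunit of cytochrome oxidase, gave r = -0.73 (permutation p = 0.00472, adjusted 0.00708) and rho = -0.70 (permutation p = 0.0144, adjusted 0.0216). Cd74, the invariant chain of MHC class II, gave r = 0.52 (permutation p = 0.108, adjusted 0.108) and rho = 0.19 (permutation p = 0.558, adjusted 0.558). With total-count scaling r was -0.19 for Cox6a2 (adjusted permutation p = 0.571), which lost the call, and 0.68 for Cd74 (adjusted permutation p = 0.0374), which gained it. The 2 libraries farthest from the median of Chrnd were replicates 9 and 2. Without them r was 0.75 for Cdkn1a, 0.70 for Myh3, -0.69 for Ndufs1, -0.62 for Cox6a2, -0.47 for Myh4 and 0.32 for Cd74, and no permutation p adjusted over the 6 was under 0.05 (lowest 0.0604), with unadjusted permutation p of 0.0171 for Cdkn1a, 0.0223 for Myh3 and 0.0302 for Ndufs1 over 10 libraries. With total-count scaling the 2 farthest libraries were replicates 9 and 5, and without them the adjusted permutation p was 0.0158 for Cdkn1a (r = 0.84) and 0.0382 for Myh3 (r = 0.75), and above 0.05 for the other 4 genes. The calls for Myh4 and Ndufs1 were thus lost without the 2 farthest libraries under both scalings, and those for Cdkn1a and Myh3 under one of them.

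**Figure D4:**
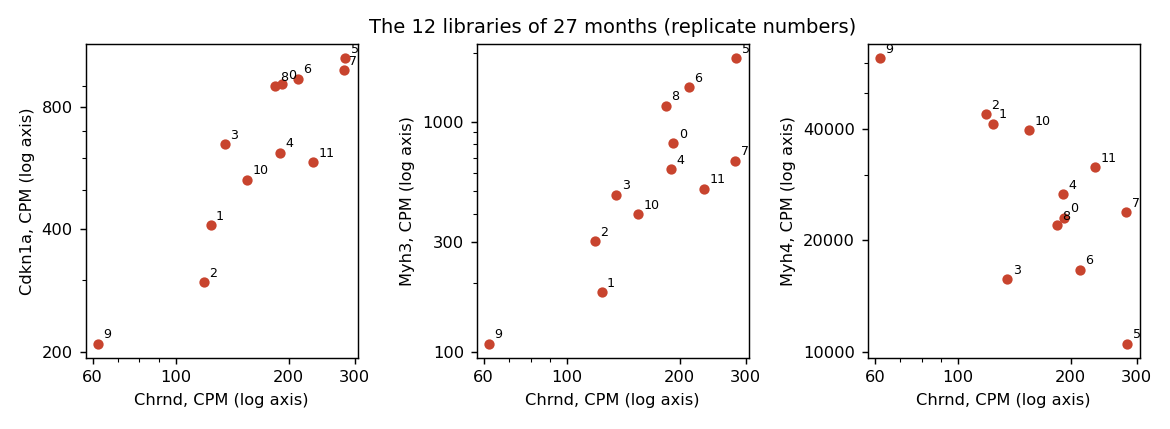
Level of Cdkn1a, Myh3 and Myh4 against that of Chrnd in the 12 libraries of 27 months, in CPM on log axes, with replicate numbers beside the points. Replicate 9 lies at one end of all 3 plots, with 62.0 CPM of Chrnd, and Myh4 runs opposite to the other two.

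The gastrocnemius, the mostly fast muscle of the calf, was used to ask where the change of the tibialis anterior differed. It had 10 libraries at 6 and 11 at 27 months, numbered by the labels in a series of their own, so that muscle and library set cannot be told apart. The labels do not say whether both muscles came from the same rats, and the fit did not pair them. The difference between the changes of the 2 muscles was called for 936 of 12784 genes (7.32%), and it was higher in the tibialis anterior for 290 (2.27%) and lower for 646 (5.05%). Without replicates 4 and 9 of the gastrocnemius at 6 months, an alternative added after the data were seen, 529 genes were called, 210 higher and 319 lower.

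Among the named genes called higher in the tibialis anterior were some, but not most, of the named genes of the synapse and of muscle differentiation. The log2 change of Chrnd was 4.83 in the tibialis anterior and 3.33 in the gastrocnemius, a difference of 1.49 ± 0.31 (SE; limma-voom adjusted p = 4.05e-05). Runx1 changed by 5.10 in the tibialis anterior and 3.69 in the gastrocnemius, and Myog by 3.76 in the tibialis anterior and 2.54 in the gastrocnemius. At 6 months the median levels of Chrnd, Runx1 and Myog were lower in the tibialis anterior. Medians of Myog were 8.60 and 123 CPM there at 6 and 27 months and 22.0 and 131 CPM in the gastrocnemius. Those of Runx1 were 7.77 and 295 CPM against 15.1 and 206 CPM. For Chrnd they were 5.81 and 187 CPM against 10.1 and 107 CPM. Levels of the gastrocnemius were scaled with all 325 libraries. Tmem8c had the largest difference of all called genes above 1 CPM on average, 2.37 ± 0.68, with 4.99 in the tibialis anterior and 2.62 in the gastrocnemius. Actc1 and Myh8 changed by 3.17 in the tibialis anterior and 2.02 in the gastrocnemius and by 0.93 in the tibialis anterior and -0.06 in the gastrocnemius, respectively. Baiap2l1, Epn3, Cst7 (a cystatin protease inhibitor) and MGC105649 completed the 5 largest differences in this direction, at 2.06, 2.02, 1.97 and 1.95. With Bonferroni adjustment Chrnd stayed called, and Runx1, Myog, Tmem8c, Actc1 and Myh8 did not. For the other 4 receptor subunits the difference did not pass both thresholds. Nor did it for Musk (0.59), Erbb2 (0.50), Myf5 (0.058), Tnnt2 (0.97), Myl4 (-0.19) and Myh3 (-0.26). The difference for Nes was called in the other direction (-0.83).

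Tfrc and Mstn fell further in the tibialis anterior. The change of Tfrc was -3.03 in the tibialis anterior and -1.93 in the gastrocnemius, and that of Mstn was -2.10 in the tibialis anterior and -1.08 in the gastrocnemius. With Bonferroni adjustment the difference stayed called for Tfrc and not for Mstn. The slow myosin Myh7 changed by -1.07 in the tibialis anterior and -0.33 in the gastrocnemius, a difference that was not called by edgeR's quasi-likelihood test. The 5 largest differences in the lower direction were those of Cep290, Xirp2, Hmgn5, LOC100911576 and Smc4, at -2.09, -2.07, -1.91, -1.84 and -1.70. Cep290 is a protein of the cilium, Xirp2 an actin-binding protein of the fibre and Smc4 a condensin subunit. In these genes the 6-month gastrocnemius libraries varied widely. Cep290 ran from 3.40 to 37.1 CPM and Xirp2 from 1414 to 11349 CPM there, with replicates 4 and 9 the lowest for Cep290, Xirp2, Hmgn5 and Smc4 among the 10. Low values were not confined to them, since Cep290 was at 6.13 and 7.24 CPM in replicates 5 and 8, beside 5.60 CPM in replicate 9. Without replicates 4 and 9 the differences were -1.70 for Cep290 and -1.65 for Xirp2, and -0.94 for Hmgn5, which was then not called (limma-voom adjusted p = 0.0856). LOC100911576 had no count in replicate 2 and 3.70 CPM in replicate 0 of the gastrocnemius at 6 months. The other libraries of that group held at least 22.8 CPM. Its gastrocnemius medians were close, 39.9 CPM at 6 months and 42.7 CPM at 27 months. A fit without replicates 0 and 2 was not run. By edgeR's quasi-likelihood test the difference for LOC100911576 was not called.

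**Figure D5:**
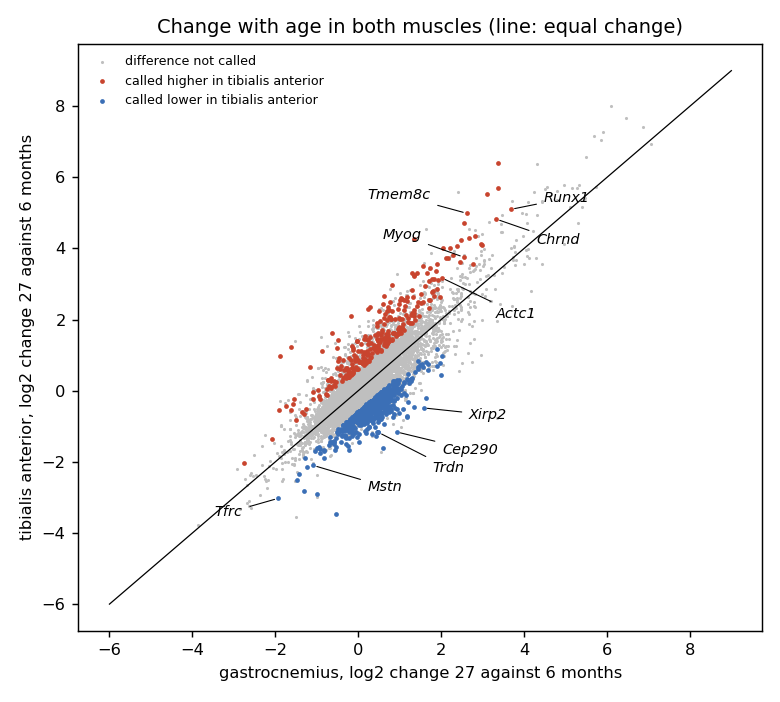
Log2 change from 6 to 27 months of each of 12784 genes in the tibialis anterior (vertical axis) and the gastrocnemius (horizontal axis). The line marks equal change, red and blue points are genes called higher (290) or lower (646) in the tibialis anterior, and 10 genes of the text are named.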

How the data were processed

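Raw whole-number counts per gene were deposited by the authors for each library, with no normalization. Tissue was kept in RNAlater, ribosomal RNA was depleted, and stranded total RNA libraries were sequenced in read pairs. Counting was done in ArrayStudio (version not given in the sources used here) on the rat B6.0 reference with an in-house RefSeq gene model. Whether counting used strand is not given there either. The 17870 lines of a file were summed to 17315 symbols (494 symbols stood on several lines, 1.82% of counts). Genes were kept by filterByExpr (minimum count 10, minimum total 15), scaled by TMM (edgeR 4.0.16) and fitted with limma-voom (limma 3.58.1, R 4.3.3) over all 85 tibialis anterior libraries with a mean for each of 7 ages. The interaction with the gastrocnemius was fitted over all 325 libraries. Log2 CPM used a prior count of 0.5. DESeq2 1.42.0 and edgeR's quasi-likelihood test were alternatives. The fit was tested on simulated data. No pair of libraries agreed within sampling noise (checked by chi-square). Equal replicate numbers of the 2 ages correlated between -0.07 and 0.10 in their deviations and were not treated as pairs. Permutation tests used scipy 1.17.1, and figures matplotlib 3.10.9.

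Genes named by rule were the 10 largest rises and 10 largest falls above a mean log2 CPM of 0, all receptor subunits, adult myosins and developmental sarcomere genes, up to 3 largest called rises and 3 falls of every other list (the 2 most abundant where none was called), the 5 largest differences from the gastrocnemius in each direction, and Trim63, Fbxo32, Ppargc1a, Mstn, Igf1, Pitx1 and Tbx4. Some genes that the rule names are not reported here. The comparison, the 46 lists and these rules were chosen with earlier results of these data known. Of 750 list genes 702 were in the files, 3 under an older symbol found through the RefSeq gene table (GRCr8), and the others were not analysed here.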

Additional observations from a re-analysis of the deposited data

Results flagged for a closer look

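The change from 6 to 27 months differed between the tibialis anterior and the gastrocnemius by the interaction test (limma-voom) for 47 of the genes described. Values in brackets are the log2 change in the tibialis anterior minus that in the gastrocnemius. The difference was positive for the synapse, regeneration and sarcomere genes Chrnd (1.49), Runx1 (1.41), Myog (1.22), Tmem8c (2.37), Actc1 (1.15) and Myh8 (0.99) and for the growth-related genes H19 (1.04), Igfbp5 (0.61) and Tgfb1 (0.65). It was also positive for the immune genes Cd5 (1.45), Cd68 (0.68), Ciita (0.94) and Cst7 (1.97), the matrix and fibroblast genes Bgn (0.73), Loxl1 (0.70), Col13a1 (0.59) and Pi16 (0.62), the Schwann cell genes S100b (0.87) and Sox10 (0.89), and Baiap2l1 (2.06), Epn3 (2.02), MGC105649 (1.95), Cidea (1.16), Hspb7 (0.77), Dbp (0.97) and Slc7a11 (1.91).

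The difference was negative for the fibre genes Myh7 (-0.74), Tpm3 (-0.72), Trdn (-1.66), Xirp2 (-2.07), Dmd (-0.79), Sgcb (-0.75) and Nes (-0.83) and for the signalling and uptake genes Tfrc (-1.09), Mstn (-1.02), Irs1 (-0.64) and Adcy1 (-1.51). As for Xirp2, the gastrocnemius libraries of 6 months varied widely for Trdn, from 377 to 2348 CPM. Replicates 4 and 9 were the lowest of them for Trdn. It was also negative for Cep290 (-2.09), Hmgn5 (-1.91), LOC100911576 (-1.84), Smc4 (-1.70), Dld (-0.89), Rrm2b (-0.74), Ifit2 (-0.90), Nfil3 (-1.02), Adamts1 (-0.62) and Cd55 (-0.60). Dmd and Nes were called higher at 27 months in the tibialis anterior and rose further in the gastrocnemius. Without replicates 4 and 9 of the gastrocnemius at 6 months (added after the data were seen), 12 of the 47 differences were no longer called, those of Cd5, Cd55, Cd68, Cidea, Dbp, Dmd, Hmgn5, Loxl1, Pi16, Rrm2b, S100b and Tgfb1. With Bonferroni adjustment 33 of the 47 were no longer called, and the 14 that stayed were those of Baiap2l1, Cep290, Chrnd, Cst7, Dld, Dmd, MGC105649, Nes, Rrm2b, Sgcb, Smc4, Tfrc, Trdn and Xirp2.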

How the results depend on the processing

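The count of called genes was within 1.5 times of 3245 under every alternative except a 2-fold threshold (1470, 1113 higher and 357 lower). Total-count scaling gave 3623 higher and 442 lower. Leaving out each of the 24 libraries gave 3111 to 3458 calls, 1957 to 2123 higher and 1138 to 1335 lower. edgeR's quasi-likelihood test called 3183, DESeq2 3189 and Bonferroni adjustment 2548. With the replicate number as a block, 3232 genes were called (2031 higher, 1201 lower), 3201 of them shared, and of the named genes Ppargc1a (-0.58) and Srm (-0.58) fell under the fold threshold. The numbers share no stated animal, and 2 of 12 libraries of 6 months correlated best with their own number.

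None of the 187 called named genes changed sign under any alternative. Uncalled genes with changes near 0 did: under total-count scaling Fbxo32 (0.080), Igf1 (0.085), LOC100911576 (0.12), Myh1 (0.24), Myh2 (0.21), Myh7b (0.073) and Sdc1 (0.21), and under another test, filter, weight or left-out library Psmd1 (no filter -0.0031, leaving out a library -0.015 to 0.027), Tbx4 (-0.026, -0.018, -0.017, leaving out a library -0.067 to 0.33) and LOC100911576 (0.052, 0.048, leaving out a library -0.32 to 0.031). In leave-one-out fits 13 called named genes missed a threshold at least once. The difference from the gastrocnemius was called for 516 genes (62 higher) after Bonferroni adjustment and for 529 (319 lower) without 2 gastrocnemius libraries. Other settings gave 822 to 1016. The adjusted p of r with Chrnd was above 0.05 without the 2 far libraries for Myh4 (r = -0.47), Myh3 (r = 0.70), Cdkn1a (r = 0.75), Ndufs1 (r = -0.69), Cox6a2 (r = -0.62). Total-count scaling gave r = 0.68 for Cd74, -0.19 for Cox6a2, past the threshold for Cd74 and short of it for Cox6a2. Counts of Zap70, Oas3 and other genes under 1 CPM limit the precision of their changes.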
